A study of Mus musculus with 8 samples.

Results

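Trace amine-associated receptors (TAARs) are the smaller of the receptor families that olfactory sensory neurons (OSNs) use to detect odors, and 8 of their mRNAs were followed here after conditional loss of the transcription factor Emx2. The genes are Taar1, Taar2, Taar3, Taar4, Taar5, Taar6, Taar8c and Taar9. They were chosen by symbol, as array rows that carry 1 gene symbol, and they make up 8 of the 23410 rows with a gene symbol that were tested. A further 7 rows carry other or several Taar symbols and are described after them.

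The tissue was olfactory mucosa of mice on postnatal day 1, of mixed 129 and C57BL/6J background, and each of 8 samples was measured on 1 Affymetrix Mouse Gene ST array. The Emx2 knockout group held 4 samples of genotype 123Cre:Emx2(fl/fl), in which Cre can delete both floxed Emx2 alleles. The control group held 4 samples from littermates that keep an Emx2 allele out of reach of Cre. Controls 1 and 4 were 123Cre:Emx2(fl/+), with Cre and 1 floxed allele, and controls 2 and 3 were Emx2(fl/fl), without Cre. In 123Cre mice the recombinase is first made in immature neurons. With a reporter gene, the study found recombination in only part of the cell bodies of the OSN layers. Emx2 can thus remain in some OSNs, as well as in progenitors and other cells of the mucosa. The array reads the whole tissue, so fewer cells that make a receptor and less mRNA per cell cannot be told apart. All values are the log2 values per gene row that were deposited, and all differences are knockout minus control on that scale.

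TAARs are G-protein-coupled receptors for amines, and like odorant receptors (ORs) they are thought to be expressed 1 per neuron. The functional genes of the family other than Taar1 appear to be used by OSNs, most of them in the dorsal part of the olfactory epithelium. Taar1 is best known in the brain, where it modulates monoamine neurons, and it stands here as the family member without a known olfactory role. Emx2 is a homeodomain protein, a class of factor that binds short AT-rich sites, and such sites lie before many OR genes. The data bear on whether TAAR mRNA abundance shifts when Emx2 is deleted in OSNs, a deletion that may not reach every OSN.

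The 16 genes of the family, 1 of them the pseudogene Taar7c-ps, lie together on chromosome 10 in the RefSeq annotation of GRCm38.p6. They run in the order Taar1 to Taar6, Taar7a to Taar7f, Taar8a to Taar8c and Taar9. RefSeq windows of 250 bases before the gene start were at hand for 11 of the genes, 5 of them among the 8 (Taar2, Taar3, Taar5, Taar6 and Taar9). In all 11 the RefSeq model starts at the ATG, so a window ends at the start codon and may hold transcribed leader sequence. The following stretches of 30 bases hold the best match in their window to the homeodomain core TAATTA. They are given for these 5 genes and for Taar8b, whose window holds an exact match, and the Taar7 windows are not printed. Where several matches were equally good, the one nearest the start codon was taken. Each is written 5′ to 3′ on the strand of its gene, and capitals mark the 6 bases that match the core or differ from it at 1 base.
Taar2, chr10:23938458-23938487, plus strand: agaccaattgttAAATTAtaaagcagcaca
Taar3, chr10:23949483-23949512, plus strand: agttcactgggaTAATTTgaacaaaagaag
Taar5, chr10:23970636-23970665, plus strand: ttgttgttgttaTTATTAttgtagacaggg
Taar6, chr10:23985666-23985695, minus strand: gagaaccgaattCAATTAcaggacttctgc
Taar8b, chr10:24092425-24092454, minus strand: ttaatttctttaTAATTAaaatagaaaaag
Taar9, chr10:24109538-24109567, minus strand: ctgggaagtttaCAATTAccaagactggag

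The exact core, searched on both strands, was held by 1 of the 11 Taar windows, that of Taar8b, and by 0 of the 5 windows of the genes described here. It was held by 18% of 948 OR windows and by 4.84% of all 32851 windows. With 1 mismatch allowed, all 11 Taar windows held it, and so did 90.8% of OR windows and 46% of all windows. The match shown is the nearest of any that were equally good. It ends 15 bases before the start codon in Taar9, 31 bases in Taar6 and 52 bases in Taar5. In Taar3 it ends 57 bases before, in Taar2 96 bases and in Taar8b 142 bases. CCCNNGGG, the core bound by Ebf factors that act in OSNs, was in 0 of the 11 Taar windows, in 2.74% of OR windows and in 11.8% of all windows. These are matches of letters in a short window and do not mark bound sites.

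None of the TAAR mRNAs passed the test for a difference between Emx2 knockout and control mice. At an adjusted p under 0.05 (limma, Benjamini-Hochberg over all tested rows) 0 of the 8 were called, against 0.359% of all rows, which were 82 lower and 2 higher in the knockouts. The values leaned to one side all the same: 7 of the 8 had a difference below 0, against 48.4% of all rows, and Taar5 was the exception. Before adjustment, 3 of the 8 had p under 0.05 in limma (Taar4, Taar8c and Taar9), all lower in the knockouts, against 6.1% of all rows in either direction and 3.06% lower. The share in either direction was 38.5% of 13 immature OSN markers, 27.8% of 18 mature OSN markers and 15.8% of OR rows, so a raised share is not particular to the Taar genes. In Taar4 and Taar8c the knockout values lay below every control value, an arrangement found in 2.54% of all rows. With knockout replicate 2, the array least like the others, left out, the counts were again 3 and 2, against 9.99% of rows at an unadjusted p under 0.05 in either direction and 5.6% without overlap and lower in the knockouts. The methods' t-test placed 2 of the 8 under an unadjusted 0.05, against 7.08% of all rows. Where the dimmest 30% of rows were left out, Taar3, Taar4 and Taar6 stayed in the fit and Taar4 alone was under 0.05 before adjustment, against 4.64% of rows. The median difference was -0.22 over the 8 genes and -0.26 over the 7 olfactory ones, against 0.00 over all rows.

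**Figure D1:**
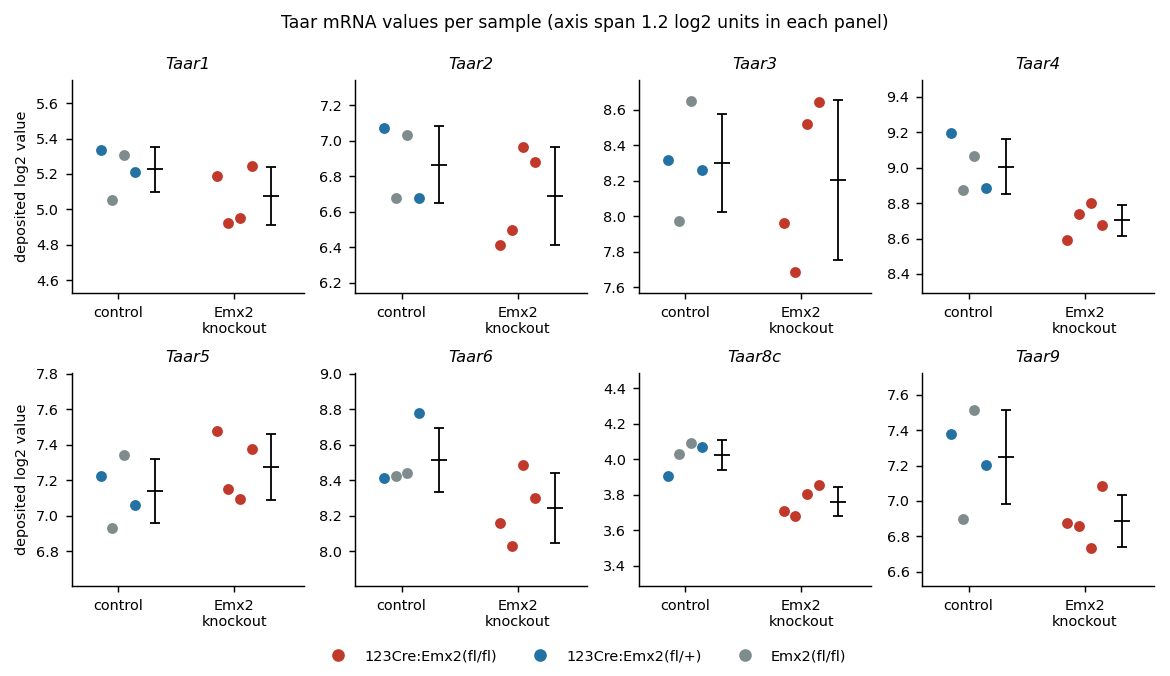
Deposited log2 value (vertical axis) of each of the 8 Taar genes in each sample, with controls at left and Emx2 knockouts at right in every panel. Points are single samples coloured by genotype, and the bar beside them is the mean and SD of 4 samples. Taar4 and Taar8c are the panels in which no knockout point reaches the controls, and every panel spans 1.2 log2 units around its own level, since levels of different genes depend on their probes.

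The deleted gene was read first as a check of the labels. Emx2 stood at 10.84 ± 0.12 in controls and 9.90 ± 0.09 in knockouts (SD, n = 4 each), a difference of -0.94 with an adjusted p of 0.0014 (limma). On a linear scale that difference is -48.0%, so part of the Emx2 mRNA of the tissue remained, and the cells that held it were not identified. Lhx2, the other homeodomain factor of OSNs studied with Emx2, differed by -0.00. Omp, the olfactory marker protein of mature OSNs, differed by -0.06 with a 95% confidence interval from -0.22 to 0.10. Arrays had medians between 7.998 and 8.129, and mean correlations with the other arrays of 0.987 to 0.990 except for knockout replicate 2, at 0.978.

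Taar4, a receptor for phenylethylamine, an amine enriched in carnivore urine, was separated between the groups in every sample. Its values were 9.19, 8.87, 9.07 and 8.88 in controls 1 to 4, and 8.59, 8.74, 8.803 and 8.68 in knockouts 1 to 4. The highest knockout lay just under the lowest control, so the groups were apart but by a small step. The means were 9.004 ± 0.16 and 8.70 ± 0.09 (SD, n = 4), a difference of -0.30 ± 0.09 (SE). On a linear scale this is -18.9%, with a 95% confidence interval from -29.9% to -6.2%. Its limma p was 0.00996 and the adjusted p 0.574. With any 1 sample left out the difference stayed between -0.35 and -0.24, and the unadjusted p reached at most 0.0316.

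Taar9, the last gene of the cluster, had the lowest difference of the family. Controls stood at 7.38, 6.90, 7.51 and 7.20, and knockouts at 6.88, 6.86, 6.73 and 7.08. Control 2 sat close to the knockouts, and knockout 4 was above it, so 3 of the 4 knockouts lay below all controls. The means were 7.25 ± 0.26 and 6.89 ± 0.15 (SD, n = 4). The difference of -0.36 ± 0.14 (SE) corresponds to -22.0% on a linear scale, with an interval from -37.05% to -3.5%. Its limma p was 0.0273 and became 0.764 on adjustment. Before adjustment it was 0.0724 without control 1, 0.0784 without control 3, 0.0557 without knockout 1 and 0.0713 without knockout 3, and 0.0545 by the methods' t-test, so its place among the 3 genes rests on single arrays.

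Taar8c belongs to the Taar8 subfamily, and its row lay among the dimmest of the array, at 3.90, 4.03, 4.09 and 4.07 in controls and 3.71, 3.68, 3.803 and 3.86 in knockouts. All 4 knockouts were below all 4 controls. The mean moved from 4.02 ± 0.08 to 3.76 ± 0.08 (SD, n = 4), a difference of -0.26 ± 0.07 (SE) with an interval from -0.43 to -0.10. The limma p of 0.00614 was the lowest of the 8, and the adjusted p was 0.455. The row is among the dimmest 30% of the table, as are those of Taar1, Taar2, Taar5 and Taar9, and whether it lies above background was not tested.

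Taar6 followed the same direction with 1 wide-lying control. Its values were 8.41, 8.42, 8.44 and 8.78 in controls and 8.16, 8.03, 8.48 and 8.30 in knockouts. Control 4 stood well above the other 3 controls, which lay close together. Knockouts 1, 2 and 4 were below every control, and knockout 3 was above 3 of them. The difference was -0.27 ± 0.12 (SE), with a limma p of 0.0546 and an adjusted p of 0.826. Without control 4 it was -0.18, with an unadjusted p of 0.146 in limma, and without knockout 3 it was -0.35, with 0.0177.

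Taar2 and Taar3 lie next to each other at the start of the olfactory part of the cluster, and both varied more among samples than between groups. Taar2 read 7.07, 6.68, 7.03 and 6.68 in controls and 6.41, 6.49, 6.96 and 6.88 in knockouts. Knockouts 1 and 2 were below the controls, and knockouts 3 and 4 were inside their range. Its difference was -0.18, with an interval from -0.53 to 0.18. Taar3, a receptor for isoamylamine, read 8.32, 7.97, 8.65 and 8.26 in controls and 7.96, 7.69, 8.52 and 8.64 in knockouts. The same pair of knockouts was low and the same pair was inside the control range. The difference of -0.10 had an interval from -0.61 to 0.41, and the residual SD of 0.37 was higher than that of 92.9% of all rows.

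Taar5, the receptor for trimethylamine, a strong-smelling component of male mouse urine, was the gene whose mean was higher in the knockouts. Controls read 7.23, 6.93, 7.34 and 7.06, and knockouts read 7.48, 7.15, 7.09 and 7.38. Knockouts 1 and 4 were above every control, and the other knockouts were inside the control range. The means were 7.14 ± 0.18 and 7.28 ± 0.18 (SD, n = 4), a difference of 0.14 ± 0.12 (SE) with an interval from -0.14 to 0.41. The limma p was 0.288 before adjustment and 1.00 after it, and the interval holds both signs.

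Taar1, the member without an olfactory role, read 5.34, 5.05, 5.31 and 5.21 in controls and 5.19, 4.92, 4.95 and 5.25 in knockouts. Knockouts 2 and 3 were below all controls and the others were not. The difference of -0.15 ± 0.10 (SE), with an interval from -0.38 to 0.08, lay in the same range as those of Taar2 and Taar3. Its level is not set against the other genes' levels, because a row's brightness depends on its probes.

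**Figure D2:**
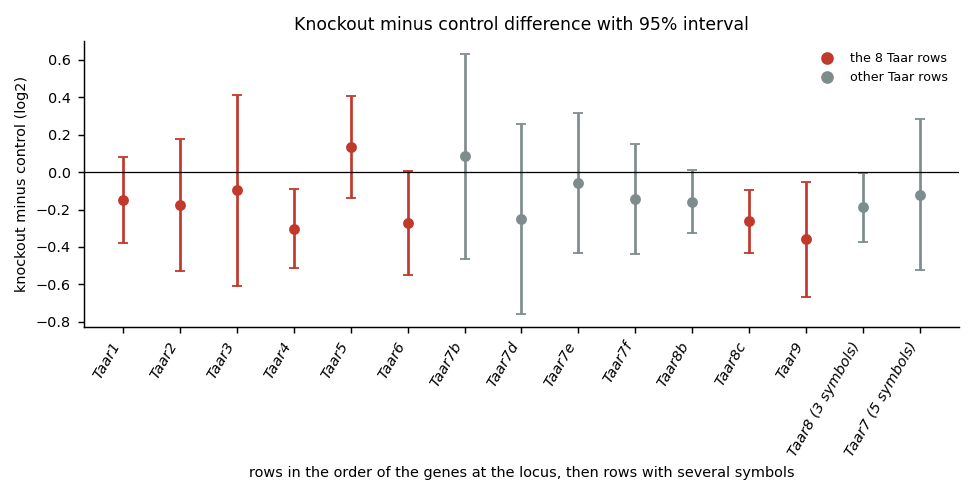
Knockout minus control difference on the log2 scale (vertical axis) with its 95% confidence interval from limma, for the 8 Taar genes (red) and the other Taar rows (grey), in the order of the genes at the cluster. Intervals of Taar4, Taar8c, Taar9 and the row shared by Taar8a, Taar8b and Taar8c exclude 0 before adjustment. The points of Taar5 and Taar7b are above 0, and the Taar7 intervals are the widest of the grey ones.

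The other 7 Taar rows gave no call either. Among them 5 carry 1 symbol. Taar7b differed by 0.08, Taar7d by -0.25, Taar7e by -0.06 and Taar7f by -0.14, and in all of these the groups overlapped. Taar8b, a dim row, read 4.48, 4.71, 4.72 and 4.60 in controls and 4.44, 4.52, 4.45 and 4.45 in knockouts. Its knockouts 1, 3 and 4 were below all controls, and the difference was -0.16 with a limma p of 0.0607 and an adjusted p of 0.834. A row shared by Taar8a, Taar8b and Taar8c differed by -0.19, with a limma p of 0.0451 and an adjusted p of 0.811, so the 3 rows that read the Taar8 genes had differences between -0.26 and -0.16. A row shared by 5 Taar7 genes differed by -0.12. The Taar7 and Taar8 genes are close copies of each other, and how far their probes share signal was not tested.

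Several samples were low or high across most of the family. Knockout 2 was the lowest sample for 4 of the 8 genes, and 7 of the 8 were below their control mean there. A count of 7 was also found in knockout 1 and in control 2, a sample of genotype Emx2(fl/fl). It was 6 in knockout 3 and control 4, 4 in knockout 4, 2 in control 1 and 1 in control 3. The mean over the 8 genes was 7.10, 6.86, 7.18 and 7.02 in controls and 6.80, 6.69, 6.92 and 7.01 in knockouts, so the group ranges overlapped through control 2. The mean over 1035 OR rows was 7.55, 7.30, 7.69 and 7.67 in controls and 7.28, 6.97, 7.56 and 7.67 in knockouts. It was low in control 2 and knockouts 1 and 2, as the Taar mean was, whereas in knockout 3 it stood at the level of the controls and in control 4 it was among the highest.

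**Figure D3:**
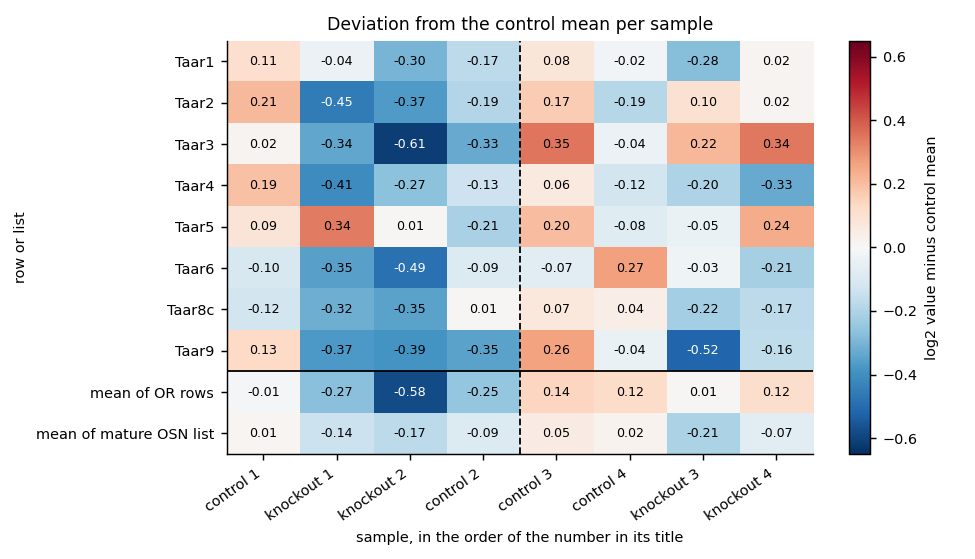
Each cell is the log2 value of a sample minus the control mean of that row, for the 8 Taar genes, the mean of the OR rows and the mean of the mature OSN list. Samples (horizontal axis) stand in the order of the number in their titles and the dashed line parts numbers 1 to 4 from 5 to 8. Taar4, Taar6, Taar8c and Taar9 are below 0 in every knockout column, Taar6 by only -0.03 in knockout 3. Taar2 and Taar3 are below 0 in knockouts 1 and 2 and above it in knockouts 3 and 4.

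Sample titles carry numbers from 1 to 8, and numbers 1 to 4 and 5 to 8 each held 2 controls and 2 knockouts. What the numbers stand for is not given in the labels, which mark no cut after number 4. Within numbers 1 to 4 the differences of Taar4, Taar6, Taar8c and Taar9 were -0.37, -0.32, -0.28 and -0.27. Within numbers 5 to 8 they were -0.24, -0.22, -0.25 and -0.45 in the same order. These genes were thus lower in the knockouts in both sets, which are parts of the same 8 samples and not a repeat of the experiment. Taar2 differed by -0.42 in numbers 1 to 4 and 0.07 in numbers 5 to 8, and Taar3 by -0.32 and 0.13. Taar5 differed by 0.24 and 0.04, and Taar1 by -0.14 and -0.16. With the set of numbers as a block in limma, 4 of the 8 genes had an unadjusted p under 0.05, against 8.66% of all rows: Taar8c at 0.00246, Taar4 at 0.0113, Taar6 at 0.0170 and Taar9 at 0.0233. The adjusted p values were between 0.206 and 0.484 for these genes, and 0 of the 8 were called.

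The control group mixes 2 genotypes, so the knockouts were also set against each in a fit with 3 genotypes. Against 123Cre:Emx2(fl/+) littermates Taar4 differed by -0.34, Taar9 by -0.40, Taar6 by -0.35 and Taar8c by -0.23. Against Emx2(fl/fl) littermates the values were -0.27, -0.32, -0.19 and -0.30 in the same order. All 4 were thus lower in the knockouts than in either kind of control, as were Taar1, Taar2 and Taar3. In these contrasts 0 of the 8 genes were called, against 0.179% and 0.137% of all rows. Between the control genotypes the 8 genes differed by -0.08 to 0.16, and 0 of them were called, as were 0% of all rows. None of the 8 had an unadjusted p under 0.05 there, against 2.04% of all rows. With 2 samples per control genotype the intervals were wide, for Taar4 from -0.25 to 0.39 and for Taar6 from -0.24 to 0.57.

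Lower values were common among OR mRNAs too. The 1035 OR rows had a median difference of -0.19 and 76.9% of them were below 0. In either direction, 15.8% of them had an unadjusted p under 0.05, against 6.1% of all rows. Groups did not overlap, in either direction, in 6.67% of OR rows and 4.52% of all rows. All 8 Taar differences lay inside the OR distribution, of which 90% ran from -0.59 to 0.23. No test of a difference between the families was made. Relative to the mean of the OR rows of the same sample, none of the 8 genes was without overlap. The differences of these relative values were 0.32 for Taar5, -0.18 for Taar9, -0.12 for Taar4 and between -0.09 and 0.08 for the others.

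**Figure D4:**
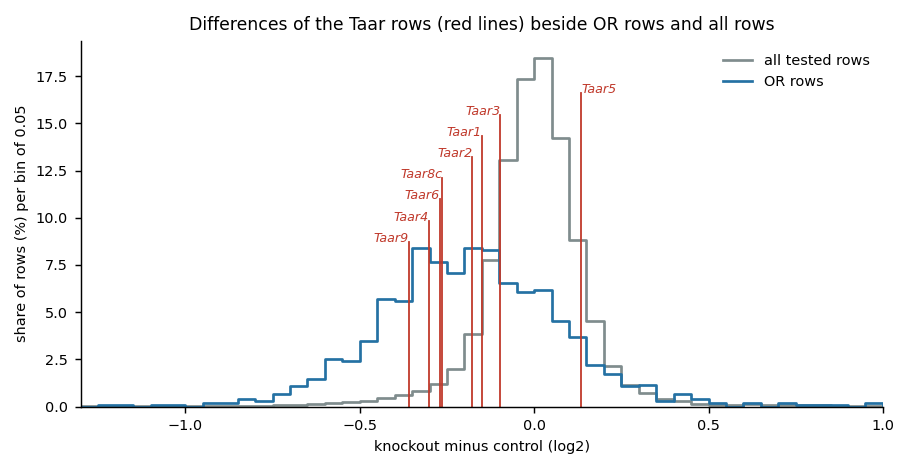
Distribution of knockout minus control differences (horizontal axis, log2) as the share of rows per bin of 0.05, for all 23410 tested rows (grey) and 1035 OR rows (blue), with the 8 Taar genes as red lines of staggered height for legibility. The OR rows are centred at -0.19 and all rows at 0.00, and 7 of the 8 lines lie left of 0.

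Markers of mature OSNs had slightly lower means in the knockouts, whereas the study reports unchanged numbers of mature and immature OSNs after conditional Emx2 deletion. Whether fewer neurons underlie the lower means was not tested. The mean over 18 genes of mature OSNs was 11.65, 11.54, 11.69 and 11.65 in controls and 11.49, 11.46, 11.43 and 11.56 in knockouts, and 15 of the 18 genes were below 0 with 0 called. The study's methods scale to a much larger published set of mature OSN mRNAs, which was not used here. The Taar genes were read relative to the mean of the 18 genes instead, which shifts the median of all rows to 0.15 and that of the 8 genes to -0.07. On that scale Taar4 differed by -0.16, Taar9 by -0.21, Taar6 by -0.13, Taar8c by -0.12, Taar2 by -0.03, Taar1 by -0.00 and Taar3 by 0.05, and all of these groups overlapped. Taar5 differed by 0.28 and all 4 knockouts were above all 4 controls, as they were in 11.7% of all rows on this scale. Its unadjusted p was 0.0237 in limma, against 19.1% of all rows under 0.05, and its adjusted p was 0.221. Centring adds the same amount to each gene's difference, so the order of the genes is that given above, and the sign of Taar3 turned.

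Taar neurons signal through the cascade that OR neurons use. Of 13 genes of the olfactory transduction cascade, 10 were below 0 and 0 were called. All of them but Gnb1 are also among the 18 mature OSN genes, as are Rtp1 and Rtp2, so these lists are not separate observations. Ano2, the chloride channel that amplifies the receptor current, differed by -0.35 (adjusted p = 0.116, limma), Cngb1, a subunit of the cyclic nucleotide-gated channel, by -0.25, and Cnga4, another subunit, by 0.27. Of the 3 genes that help receptors to the cell surface, Rtp2 differed by -0.40 (adjusted p = 0.128, limma), Reep1 by -0.08 and Rtp1 by -0.04. Among 15 regulators of receptor choice, Emx2 was the single call. Eif2ak3, the kinase of the unfolded protein response that is active when a receptor is first expressed, differed by -0.14, and Ebf3 by -0.13.

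The zone in which most Taar neurons lie is marked by Nqo1, Acsm4 and Robo2, and all 3 were below 0. Nqo1, a quinone reductase of dorsal OSNs, differed by -0.57 (adjusted p = 0.316, limma), Acsm4 by -0.30 and Robo2 by -0.12. The mean of these 3 genes was 11.69 to 11.93 in controls and 11.24 to 11.69 in knockouts, with no knockout above a control. The ventral markers Ncam2 and Nrp2 differed by -0.12 and -0.02. The part of this shift in the Taar values was not tested.

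Markers of other cells of the mucosa are given beside these values, and their part in the Taar differences was not tested. All 6 measured genes of respiratory ciliated cells were above 0 with a median of 0.25 and 0 calls, and their mean was 10.16 to 10.34 in controls and 10.27 to 10.62 in knockouts. All 6 genes of skeletal muscle were above 0 with a median of 0.13, and their mean was 7.35 to 7.58 in controls and 7.499 to 7.73 in knockouts. Immature OSN markers were below 0 for 12 of 13 genes, with 0 called and a median of -0.19. Their mean was 10.85 to 11.02 in controls and 10.75 to 10.83 in knockouts. The 5 measured markers of sustentacular cells, the supporting cells of the epithelium, had a median of -0.00. The 5 basal cell and progenitor markers had a median of 0.19, with 2 below 0 and means of 9.67 to 9.86 in controls and 9.58 to 10.29 in knockouts. The 3 ensheathing and Schwann cell markers were all below 0, with means of 10.05 to 10.25 in controls and 9.88 to 10.02 in knockouts. Olfactory bulb and brain markers were below 0 for 5 of 6 genes, with a median of -0.27 and means of 7.31 to 7.93 in controls and 7.22 to 7.63 in knockouts. Leukocyte markers were below 0 for 2 of 5 genes, and the 1 measured erythroid marker, Alas2, differed by -0.27. None of these markers was called.

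The receptors of the vomeronasal organ, a separate chemosensory organ of the nose, had lower median differences than the Taar and OR rows, with no test between the families. Of 119 Vmn1r rows 94.1% were below 0, with a median of -0.35 and 24 called lower, and of 56 Vmn2r rows 89.3% were below 0, with a median of -0.39 and 11 called lower. Their means did not overlap between groups: Vmn1r rows stood at 5.58 to 5.81 in controls and 5.07 to 5.27 in knockouts, and Vmn2r rows at 5.65 to 5.91 and 5.16 to 5.32. The 4 other vomeronasal neuron markers were below 0 for 3 genes with 0 called, with means of 11.02 to 11.17 in controls and 10.82 to 11.16 in knockouts. The part of this shift in the Taar values was not tested either.

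Amine receptors outside the Taar cluster were mostly above 0. Of 29 receptors for dopamine, serotonin, adrenaline and histamine, 22 were measured by a row of their own. Of these, 6 were below 0 and 0 were called, and the median was 0.05. The largest differences were 0.21 for Htr6, 0.20 for Htr2c and 0.20 for Drd5. The genes on either side of the cluster were not called either. Before Taar1, Slc18b1 differed by 0.05, Vnn3 by 0.15 and Vnn1 by 0.02. After Taar9, Stx7 differed by -0.19 with a limma p of 0.0835 and an adjusted p of 0.87, Moxd1 by 0.00 and Ccn2 by -0.21.

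The average course of the 7 olfactory genes over the 8 samples was compared with that of 21776 other rows with 1 symbol. The nearest rows, by root mean square difference of mean-centred values, were Rpp14 (0.033), Armcx1 (0.038), Olfr1338 (0.041), Nol11 (0.045) and Atg5 (0.046), where the median over all compared rows was 0.224. Of these, 1 is an odorant receptor. Of the Taar genes themselves, Taar1, at 0.11, and Taar8c, at 0.11, had the smallest distance from that course, and Taar3, at 0.21, and Taar5, at 0.22, the largest. The measure is not scaled, so it grows with the size of a gene's swings, and a row that did not vary at all would lie at 0.157. The 7 olfactory genes are themselves part of the average.

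**Figure D5:**
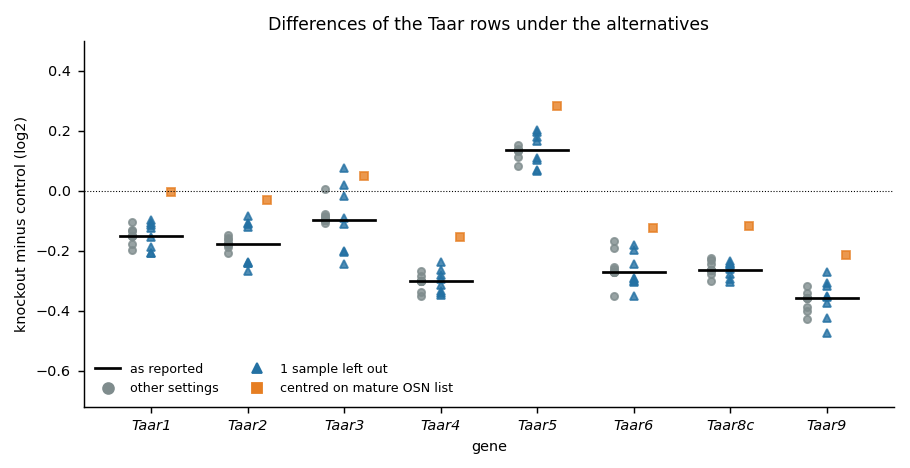
Knockout minus control difference (vertical axis, log2) of each Taar gene as reported (black line), under other settings (grey circles), with 1 sample left out (blue triangles) and centred on the mature OSN list (orange squares). Taar1, Taar2, Taar4, Taar6, Taar8c and Taar9 are below 0 and Taar5 is above 0 at every setting drawn. Taar3 is drawn on both sides of 0.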

How the data were processed

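Biotin-labelled cRNA from 8 samples was hybridised to 1-colour arrays. The deposited table holds log2 values per transcript cluster, which the authors made by combining the probes of all exons of a gene. The submitters' notes name Affymetrix Expression Console; the sources used here do not give its version, background correction or normalization. Of 35557 rows, the platform annotation gives 1 symbol for 21789, several for 1621 and none for 12147. Values were used as deposited.

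All 23410 rows with a symbol were fitted with limma 3.58.1 (lmFit, eBayes, two-sided; R 4.3.3), without covariates, and p-values were adjusted by Benjamini-Hochberg over them. Threshold: adjusted p under 0.05. The procedure was tested on simulated data. The members, gene lists and naming rule (Taar rows, Emx2, Lhx2, Omp, 3 genes on each side, up to 3 leading genes per list, 5 rows of most similar course) were chosen with earlier results of these data known. Each list used 1 row per gene. The study used both sexes and took knockouts and controls from the same litters, but the labels assign no litter, sex or batch to a sample. The p-values thus reflect only how far these samples vary, which may be biological, technical or both. The number of arrays limits the precision. Replicate numbers follow submission order.

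Alternatives were the methods' t-test, other normalizations and centrings, dropping the dimmest 30% of rows, testing all rows, a trend with robust fitting, array weights, a block for title order, either control genotype alone and each sample left out. Promoter windows and gene order are from RefSeq (GRCm38.p6). The sources used here do not give the array's own build, so no coordinates of array rows are printed.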

Additional observations from a re-analysis of the deposited data

Results flagged for a closer look

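One value among the 8 genes was far from the rest of its group. Taar6 in control 4, a 123Cre:Emx2(fl/+) sample, stood at 8.78 when the other controls lay between 8.41 and 8.44, so that its gap was 0.918 of the range of the group, above the 0.829 that Dixon's test sets for 4 samples. The test was made on 16 groups, 2 for each gene, and is built to mark about 1 in 20 groups by chance.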

How the results depend on the processing

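No Taar gene was called under any of the alternatives, and the lowest adjusted p of the 8 ran from 0.0975 (Taar4, array weights) to 1.00. Taar1, Taar2, Taar4, Taar6, Taar8c and Taar9 were below 0 and Taar5 above 0 in all of them in which they were fitted. Taar1, the member without an olfactory role, came closest to 0, at -0.0037 when centred on the mature OSN list. Taar3 changed sign: it differed by 0.049 when centred on the mature OSN list and 0.0071 with array weights, by 0.019 without control 3, and by -0.243 (without knockout 4) to 0.0747 (without knockout 2) with 1 sample left out, and the cause was not tested. Genes under an unadjusted 0.05 numbered 1 when centred on the mature OSN list (Taar5, higher), against 4481 of all 23410 rows. They numbered 1 of the 3 genes left when the dimmest 30% of rows were dropped, against 760 of 16387 rows. The methods' t-test gave 2, against 1657 rows. Either control genotype alone gave 2, against 703 rows with 123Cre:Emx2(fl/+) controls and 1073 rows with Emx2(fl/fl) controls. Quantile normalization gave 4, against 1175 rows (Taar6 joined at 0.0479 in limma). The title order as a block gave 4, against 2028 rows, and array weights gave 3, against 3431 rows. With 1 sample left out the count was 2 to 3, where 815 to 2339 of all 23410 rows were under 0.05. Over all rows, the 84 calls became 28 with the methods' t-test, 27 without the dimmest rows, 224 with array weights, 32 with 123Cre:Emx2(fl/+) controls alone, 25 with Emx2(fl/fl) controls alone, and 46 (without knockout 1) to 132 (without knockout 2) with 1 sample left out. The median of the 8 genes, -0.22 as reported, was -0.07 when centred on the mature OSN list, which moves the median of all rows to 0.15, and -0.16 with array weights and without knockout 2. No paired analysis was possible because replicate numbers follow submission order and pair no samples. The precision is set by 4 arrays per group: the 95% interval of Taar3, the widest of the 8, ran from -0.61 to 0.41.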
